A study of Mus musculus with 15 samples.

Results

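Nuclear genes for the subunits of the mitochondrial respiratory chain and of ATP synthase were followed in CD4 T cells of the small intestinal lamina propria, the tissue layer beneath the gut epithelium. The members were the genes named on the array as complex I (Nduf), complex II (Sdh), complex III (Uqcr), complex IV (Cox4 to Cox8) and complex V (Atp5) subunits, with pseudogenes left out. A rule on names chose them, with earlier results of these data known. This gave 84 of 34821 gene names: 37 of complex I, 4 of complex II, 8 of complex III, 18 of complex IV and 17 of complex V. The names followed the array, so Ndufa4, now regarded as a subunit of complex IV, was counted under complex I. Also 11 of the 84 are not canonical subunits, namely tissue-restricted isoforms of complex IV, the paralogues Cox7a2l and Ndufa4l2, the coupling factor Atp5s and Atp5sl, now called Dmac2.

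The cells came from male mice and were sorted by flow cytometry, and their RNA was amplified with a kit for small amounts of material before labelling with Cy3. Group control ate normal chow, and the other groups were on a high-fat diet (HFD) for 10 or 30 days, with 5 one-colour Agilent arrays in each. Strain, age and the day on which controls were taken are not given in the labels, so time on the diet cannot be told apart from age. The series design text gives a change of the gut microbiota as the purpose of the diet, and its title calls the dieted animals prediabetic and diabetic. Whether each array stands for its own mouse is not stated in the labels. The p-values then reflect the scatter among these 15 samples, part of which may be technical.

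The respiratory chain passes electrons from NADH, through complex I, and from succinate, through complex II, to ubiquinone, then through complex III and cytochrome c to complex IV, which reduces oxygen. Complexes I, III and IV pump protons across the inner mitochondrial membrane, and complex V, ATP synthase, uses the gradient to make ATP. In T cells, respiration is known to be prominent in resting and memory cells, and activation raises both glycolysis and mitochondrial mass. Genes of these subunits are scattered over the chromosomes, and NRF1, ETS factors such as GABPA, and YY1 are known to bind many of their promoters.

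The promoter letters are shown because such factors are known to bind genes of several complexes, and because the arrays measured the genes downstream. RefSeq windows of 300 bases on build GRCm38.p6, from 250 bases before to 50 after the start site, were matched for 69 of the 84 members. The NRF1 motif CGCATGCG, the core of its site, which reads the same on both strands, lay in windows of 9 members, or 13%, against 2.77% of 17492 genes. The ETS motif CCGGAAGT, searched on both strands, lay in those of 5 members, or 7.25%, against 5.69% of genes. The YY1 motif AAGATGGCG, also on both strands, lay in those of 8 members, or 11.6%, against 2.14% of genes. These 3 motifs did not overlap each other in any member, and 20 of 69 members (29%) had at least 1, against 9.96% of genes. Uqcr11 had those of NRF1 and ETS, and Atp5j those of NRF1 and YY1. A match describes these letters and is not shown to be a bound site. The 5 members with the NRF1 motif that follow are given as a stretch of 60 bases that holds the motif and lies within the 250 bases before the start site, 5′ to 3′ on the strand of the gene, with the motif in capitals. The motif begins 59 bases before the start site in Ndufa11, 9 in Ndufa8, 161 in Cox6a1, 41 in Atp5g2 and 49 in Atp5k. They are Ndufa11 (chr17:56717678-56717737, plus strand), Ndufa8 (chr2:36049339-36049398, minus strand), Cox6a1 (chr5:115349085-115349144, minus strand), Atp5g2 (chr15:102671054-102671113, minus strand) and Atp5k (chr5:108434414-108434473, minus strand).
Ndufa11: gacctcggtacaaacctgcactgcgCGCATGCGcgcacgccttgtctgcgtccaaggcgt
Ndufa8: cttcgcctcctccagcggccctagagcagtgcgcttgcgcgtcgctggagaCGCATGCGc
Cox6a1: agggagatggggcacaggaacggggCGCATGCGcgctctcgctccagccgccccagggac
Atp5g2: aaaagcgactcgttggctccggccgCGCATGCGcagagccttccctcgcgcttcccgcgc
Atp5k: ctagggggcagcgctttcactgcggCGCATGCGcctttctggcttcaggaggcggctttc

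The ETS motif is shown in the same way for members of complexes III and V, with the reverse complement ACTTCCGG in capitals where the match is on the other strand. They are Uqcr11 (chr10:80406853-80406912, minus strand), Uqcrh (chr4:116075071-116075130, minus strand) and Atp5h (chr11:115419924-115419983, minus strand).
Uqcr11: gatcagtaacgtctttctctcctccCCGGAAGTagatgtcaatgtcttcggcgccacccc
Uqcrh: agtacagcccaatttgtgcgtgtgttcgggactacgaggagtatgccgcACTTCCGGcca
Atp5h: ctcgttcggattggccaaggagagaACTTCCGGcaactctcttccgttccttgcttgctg
Of YY1, the motif is shown for Atp5sl (chr7:25619415-25619474, plus strand), the member of complex V with the smallest p at day 10.
Atp5sl: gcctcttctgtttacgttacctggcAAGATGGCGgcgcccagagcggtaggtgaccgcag

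Members that share a motif lay on both sides of control. Of the 9 genes with the NRF1 motif 7 were tested, and the log2 difference of day 30 minus control was 1.91 for Cox6a1, 1.52 for Atp5k, 0.55 for Uqcr11, 0.52 for Uqcrc1, -0.01 for Atp5g2, -0.03 for Atp5l and -2.67 for Ndufa11. None of these 7 passed the test across all genes, and their standard errors ran from 0.43 to 1.36. Ndufa8 and Atp5j were too dim to test.

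Levels are log2 of the processed spot intensity minus the array's 75th percentile, so that 0 is the intensity below which 75% of the probes on that array lie. They compare a probe with itself across arrays and not with other probes. A spot counted as detected when the scanner software marked it well above background. Control replicate 1 had the highest detected share of spots at 82.0% and day 30 replicate 3 the lowest at 45.2%. The share averaged 63.8% ± 12.0 over the controls (SD, n = 5), 58.5% ± 2.91 on day 10 arrays and 51.3% ± 5.48 on day 30 arrays. In exact two-sided permutation tests, p was 0.421 between control and day 10, 0.0556 between control and day 30 and 0.0397 between the diet days, or 0.421, 0.0833 and 0.0833 adjusted over the 3 comparisons. Slide 1 held the 5 controls and day 10 replicates 1 to 3, and slide 2 held day 10 replicates 4 and 5 and the 5 day 30 arrays. Control and day 30 arrays thus never shared a slide. All 10 CD4 T cell markers on the list (Cd4, Cd3e, Cd3g, Cd3d, Trac, Cd2, Lck, Thy1, Cd5 and Cd28) were detected on all 15 arrays. Markers of other cells were mixed within their lists. All 15 arrays detected 4 of 8 B and plasma cell markers and 4 of 8 CD8 T and NK cell markers. It was 2 of 13 for epithelium and 3 of 9 for macrophages and dendritic cells. For stroma and endothelium it was 1 of 8, and for red blood cells 0 of 4. The B cell gene Ms4a1, the red blood cell gene Alas2 and the endothelial gene Cdh5 were detected on 0 arrays. From the same lists, Cd79b and Pecam1 were detected on 13 arrays and Hba-a1 on 9. Detected on 15 were the epithelial genes Pigr and Krt18, cytotoxic Gzma and Gzmb, the macrophage gene Csf1r and the B cell gene Cd22.

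Most respiratory chain genes were detected in these cells. All 15 arrays detected 48 of the 84 members (57.1%), against 11601 of 34821 gene names (33.3%). By complex these were 17 of 37 in complex I, 3 of 4 in complex II, 4 of 8 in complex III, 12 of 18 in complex IV and 12 of 17 in complex V. Single arrays detected 67 to 78 members, with averages of 74.2 ± 2.49 for the control arrays (SD, n = 5), 72.4 ± 3.13 for day 10 and 70.8 ± 3.77 for day 30. No difference between these averages passed the test (exact two-sided permutation p = 0.397 between control and day 10, 0.159 between control and day 30, and 0.54 between the diet days). Adjusted over the 3 comparisons the values were 0.54, 0.476 and 0.54.

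Members detected on at least 5 of the 15 arrays were tested, which were 78: 35 of complex I, 4 of II, 8 of III, 15 of IV and 16 of V. The other 6 were Ndufa8, Ndufa4l2, Cox7b2, Cox8b, Cox8c and Atp5j. Among them, Cox7b2 and Cox8c are isoforms known from testis, Cox8b from heart and skeletal muscle, and Ndufa4l2 is known to be induced by hypoxia. Ndufa8 and Atp5j, which encodes coupling factor 6 of the ATP synthase stalk, are subunits found in most tissues, so their dim probes say nothing of the complex being absent. Atp5j was detected on 2 control arrays, 0 day 10 arrays and 2 day 30 arrays.

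Ndufa8, an accessory subunit of complex I with the NRF1 motif printed above, was detected on 3 day 30 arrays and on no array of the other groups. It read -6.13, -6.35, -6.00, -6.04 and -5.90 on the control arrays, -4.69, -5.88, -5.54, -6.13 and -5.97 at day 10 and -2.21, -6.02, -4.95, -0.15 and -0.83 at day 30. Replicates 1, 4 and 5 of day 30 were high, and replicates 2 and 3 lay within the range of the other groups. As a lower bound, the day 30 mean was at least 3.13-fold higher than control and at least 2.41-fold higher than day 10. The bound sets the day 30 mean against a mean for the dim group in which an array counts at its lowest detected signal wherever the probe read below that. With so few arrays above background Ndufa8 was not tested, and the bound makes no allowance for the spread.

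Isoform families of complex IV divided only in part by detection. The ubiquitous isoforms Cox4i1, Cox6a1, Cox6b1, Cox7a2, Cox7b and Cox8a were detected on all 15 arrays. Of the tissue-restricted isoforms, Cox7b2 was detected on 0 arrays, Cox8b on 3 and Cox8c on 4, and Cox6b2, a testis isoform, on 3 control, 4 day 10 and 1 day 30 arrays. Cox6a2 and Cox7a1, known from heart and skeletal muscle, and Cox4i2, known from lung and from hypoxic cells, were exceptions: Cox4i2 and Cox7a1 were detected on all 15 arrays and Cox6a2 on 5 control, 5 day 10 and 2 day 30 arrays. Whether these probes bind other transcripts was not tested. Of the genes for subunit c, the ring of the ATP synthase rotor, Atp5g1 and Atp5g2 were detected on all 15 arrays and Atp5g3 on 3, 4 and 5 arrays of control, day 10 and day 30.

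**Figure D1:**
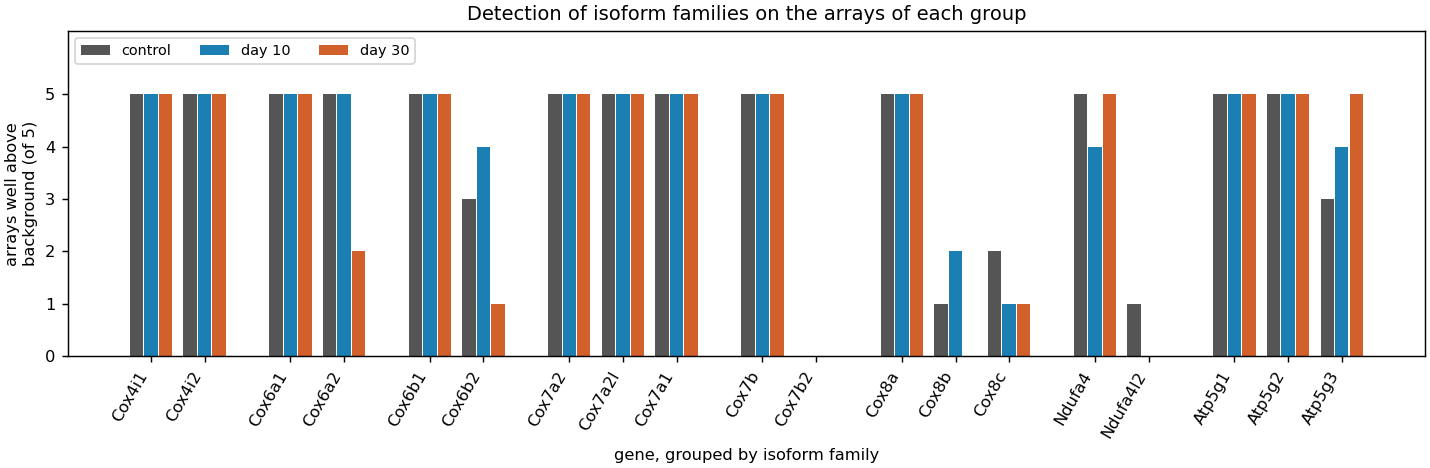
Number of arrays, of 5 in each group, on which each isoform was well above background, with genes grouped by family along the x axis and bars coloured by group. Cox7b2 has no bar in any group, while Cox4i2 and Cox7a1 reach 5 in each.

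No gene on the array, and so no respiratory chain gene, passed an adjusted p of 0.05 in any comparison (limma over 25998 genes, with 0% called between control and day 10, 0% between control and day 30, and 0% between the diet days). The smallest adjusted p over all genes was 0.704, 0.367 and 0.432 in that order. At an unadjusted p under 0.05 there were 673, 1337 and 1068 genes (2.59%, 5.14% and 4.11%). For the members, these counts were 0, 5 and 4 of the 78 tested (0%, 6.41% and 5.13%). Day 10 and day 30 were compared with the same controls, so the 2 comparisons are not independent, and day 30 minus day 10 shares arrays with both.

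Day 10 means exceeded control for 45 members and were under it for 33, and the median log2 difference was 0.14, while 49.9% of all 25998 tested genes lay above, with a median at about 0. At day 30, 51 members were higher than control and 27 lower, and the median was 0.39, while 50.3% of all tested genes lay above. Bright genes of any kind leaned the same way. Among the 11601 genes detected on all 15 arrays, 65.6% lay above control at day 30, with a median of 0.21, and of the 48 members detected as widely 35 did and 13 did not, with a median of 0.42. For day 10 the corresponding counts were 33 and 15 with a median of 0.21, against 55.5% and 0.05 for the bright genes. The mean detected share of spots was lower in the same order of groups, from 63.8% in control to 51.3% at day 30. With detection share as a covariate the median of the bright members at day 30 was -0.25, against 0.01 for all bright genes. With slide as a block it was 0.115, against 0.185 for all bright genes, so in both settings the members lay below them. Another scaling moved the median of all genes, to -0.38 at day 30 with the percentile taken over the probes detected on all arrays and to -0.24 in the authors' deposited table. Relative to the median of all genes, the day 30 medians of complexes I to V were 0.29, 0.46, 0.60, -0.09 and 0.55 as reported. That percentile shifts all genes of an array alike, so these relative medians could not change with it. In the deposited table they were 0.12, 0.24, 0.21, 0.26 and 0.08, and with slide as a block -0.23, -0.15, 0.69, 0.23 and -0.23. With quantile normalization they were 0.215, 0.30, 0.37, -0.32 and 0.37. Of the 5, only the complex III median lay above that of all genes as reported, in the deposited table, with slide as a block and with quantile normalization. With detection share as a covariate it was below, at -0.34. Between the diet days, 50 members were higher at day 30 and 28 lower, with a median of 0.30, against 53.1% and 0.06 for all genes. Of the genes detected on all 15 arrays 65.9% were higher, with a median of 0.18. Of the 48 members detected as widely, 33 were higher and 15 lower, with a median of 0.30.

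**Figure D2:**
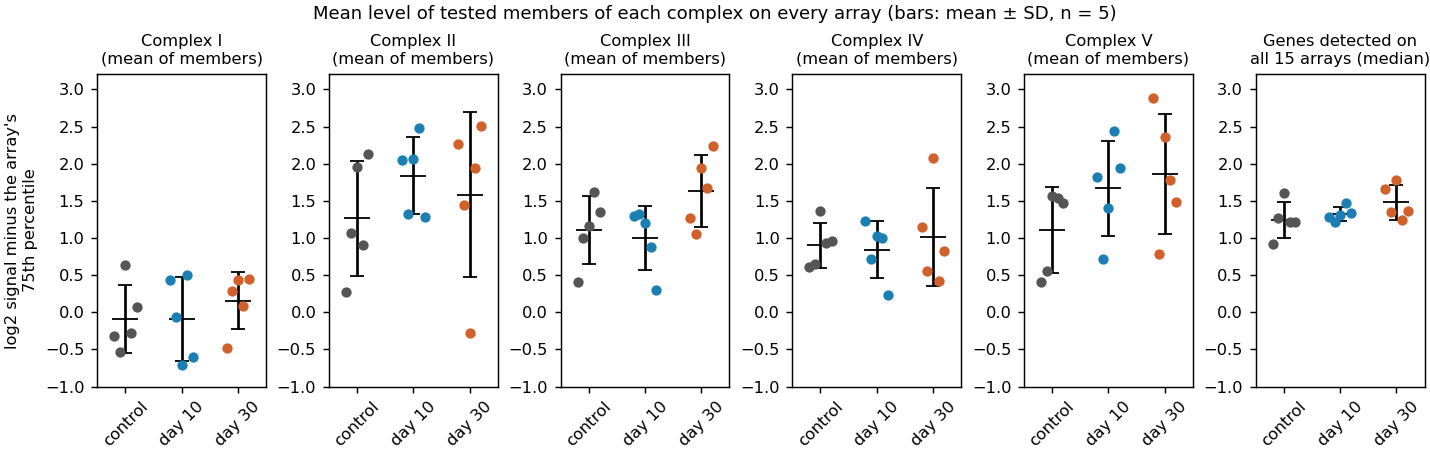
Mean log2 level of the tested members of each complex on each array, by group, with the mean and SD of 5 arrays as a bar; the last panel gives the median of the 11601 genes detected on all 15 arrays. The groups overlap in every panel, and day 30 replicate 3 lies lowest in complex II.

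**Figure D3:**
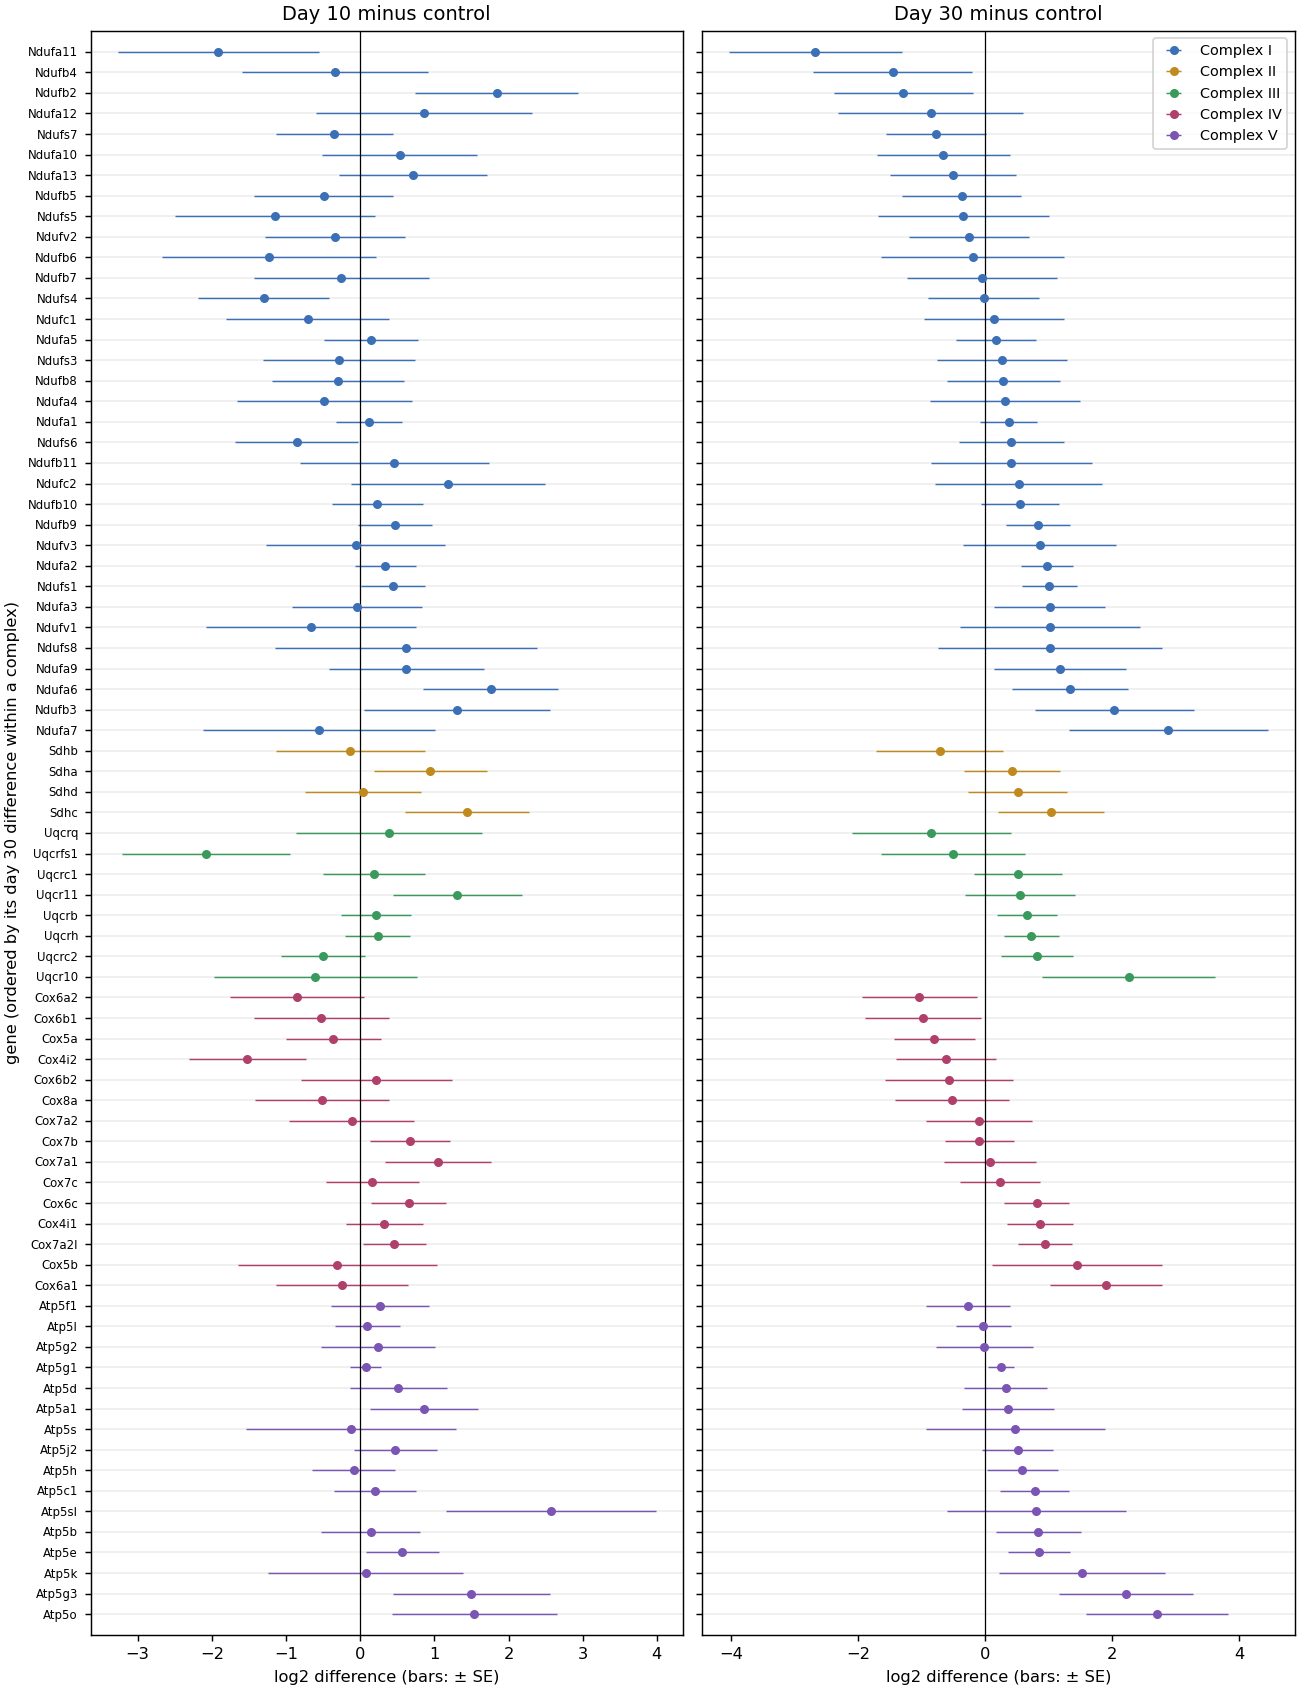
Log2 difference from control, with its standard error, of 77 of the 78 tested members at day 10 (left) and day 30 (right), coloured by complex and ordered by the day 30 value within a complex. Values lie on both sides of 0 in each complex, and none passed an adjusted p of 0.05.

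In complex I, which takes electrons from NADH, members were spread around control. At day 10, 16 of 35 tested members were above control and 19 below, with a median of -0.06. At day 30, 22 were above and 13 below, with a median of 0.29, and 2 of them had an unadjusted p under 0.05, both higher. Over all genes, 2.47% were higher and 2.67% lower at that p. The mean level of the complex was -0.09 ± 0.46 on control arrays (SD, n = 5), -0.09 ± 0.56 on day 10 arrays and 0.16 ± 0.38 on day 30 arrays, with overlap.

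Ndufs1 encodes an iron-sulfur subunit of the arm that oxidises NADH. Its probe lies at chr1:63190360-63190419, minus strand on build mm9. It read 2.21, 3.84, 4.55, 3.93 and 4.25 on the control arrays, 4.56, 3.82, 3.61, 5.06 and 3.92 at day 10 and 5.12, 3.83, 5.05, 4.80 and 5.05 at day 30. Control replicate 1 was the lowest of all, and 4 of 5 day 30 arrays were above the highest control array while replicate 2 was not. The group means were 3.76 ± 0.91 (SD, n = 5), 4.20 ± 0.60 and 4.77 ± 0.54, a difference of day 30 minus control of 1.01 (SE 0.43) with a limma adjusted p of 0.926. For Ndufs1 this was 0.13 in the authors' deposited table, 0.19 with detection share as a covariate, 0.52 with slide as a block, 0.62 with quantile normalization, 0.63 with the percentile over detected probes and 0.63 without control replicate 1. Ndufa2, an accessory subunit of the same arm, read 3.01, 2.38, 3.31, 2.52 and 3.10 in control, 3.46, 2.63, 4.42, 3.33 and 2.17 at day 10 and 4.45, 3.14, 4.05, 3.39 and 4.15 at day 30. Here too 4 of 5 day 30 arrays were above every control array, and the difference was 0.97 (SE 0.41) with a limma adjusted p of 0.926. The Ndufa2 difference was 0.08 in the authors' deposited table, 0.57 with quantile normalization, 0.59 with the percentile over detected probes, 0.63 with detection share as a covariate and 1.74 with slide as a block.

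Between the diet days, 25 of 35 tested members of complex I were higher at day 30 than at day 10 and 10 lower, with a median of 0.41. Of these, 1 was higher at an unadjusted p under 0.05 and 1 was lower, against 1.82% higher and 2.29% lower over all genes. The lower one was Ndufb2, an accessory subunit of the membrane arm, whose probe lies at chr6:39549396-39549455, plus strand on build mm9. Ndufb2 read -2.82, 0.39, -5.71, -0.54 and -0.89 in control, 0.33, 0.57, -0.87, -0.38 and -0.01 at day 10 and -5.18, -1.45, -1.65, -2.18 and -5.54 at day 30. It was detected on 4 control, 5 day 10 and 3 day 30 arrays. The values -5.71 in control and -5.18 and -5.54 at day 30 lay below the lowest detected signal of their arrays. All day 10 arrays lay above all day 30 arrays, and the control arrays spanned both. Ndufb2 was the 1 tested member whose groups did not overlap in that comparison, where 0.577% of all genes did not. The difference was -3.13 (SE 1.10), with a limma adjusted p of 0.999, and it ranged from -3.57 to -2.54 as each array was left out. With dim values set to each array's lowest detected signal it was -2.39. In the authors' deposited table the Ndufb2 difference was -0.92. Another detected probe of Ndufb2, however, differed by -0.07, and the mean of both by -1.60.

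Ndufa7, an accessory subunit near the NADH-oxidising arm, was the higher one, and it is named here after its values were seen. It read 0.02, -5.16, 1.57, -6.06 and -0.25 in control, -2.01, -2.06, -5.30, 2.35 and -5.62 at day 10 and 1.92, 1.13, 1.05, -0.43 and 0.91 at day 30. It was detected on 3 control, 3 day 10 and 5 day 30 arrays. The control and day 10 groups each held 2 arrays far below the rest, and the highest value of all was on a day 10 array. Those low readings all lay below the lowest detected signal of their arrays. The difference of day 30 minus day 10 was 3.44 (SE 1.56), with a limma adjusted p of 0.999, and the unadjusted p stayed under 0.05 in 2 of 10 fits that left out an array. With dim values set to each array's lowest detected signal the Ndufa7 difference was 2.9. Ndufa6, which had the smallest p of the complex at day 10, differed by 1.76 (SE 0.91) from control (limma adjusted p = 1). It read 0.67, -2.01, -1.37, 1.14 and 2.70 in control and 3.28, 3.04, 1.15, 2.75 and -0.28 at day 10, so the groups overlapped.

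Ndufv1, the core subunit that binds NADH, differed from control by -0.66 (SE 1.42) at day 10 and 1.02 (SE 1.42) at day 30, and was detected on 3, 2 and 3 arrays of the groups. The member farthest below control at day 30 was Ndufa11, a membrane arm subunit with the NRF1 motif printed above, at -2.67 (SE 1.36). It was named after its values were seen, and was detected on 5 control, 3 day 10 and 2 day 30 arrays. Ndufa4 read -2.17, -0.90, 1.32, 0.77 and 0.69 in control, 1.20, 1.41, 0.56, 0.39 and -6.27 at day 10 and -0.24, 0.19, 0.83, 0.12 and 0.34 at day 30. The day 30 arrays were close together, and 1 day 10 array was far below the rest, with Ndufa4 not detected on it. The Ndufa4 difference was -0.48 (SE 1.18) at day 10 and 0.31 (SE 1.18) at day 30.

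Complex II, succinate dehydrogenase, joins the tricarboxylic acid cycle to the chain, and all 4 of its genes were tested. Their mean level was 1.27 ± 0.77 on control arrays (SD, n = 5), 1.84 ± 0.52 on day 10 arrays and 1.58 ± 1.11 on day 30 arrays. At each diet day, 3 lay above control and 1 below, with medians of 0.49 and 0.47, and 0 reached an unadjusted p under 0.05. For day 10 the shares over all genes were 0.889% higher and 1.7% lower.

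Sdhc, one of the membrane anchors, had the smallest p of complex II against control at both days. It read 0.06, 1.15, -2.27, 0.04 and 1.05 in control, 1.45, 1.17, 2.17, 1.42 and 1.01 at day 10 and 2.49, 0.94, -2.29, 1.79 and 2.29 at day 30. The day 10 arrays were close together, and control replicate 3 and day 30 replicate 3 were low. The differences from control were 1.44 (SE 0.83) and 1.04 (SE 0.83), with limma adjusted p of 1 and 0.944. Another detected probe of Sdhc gave -0.49 at day 10 and 1.51 at day 30. Between the diet days that probe gave 2.00, and the brightest probe -0.40. Sdha, the flavoprotein that oxidises succinate, differed by 0.95 (SE 0.76) and 0.42 (SE 0.76), and Sdhd, the other anchor, by 0.04 (SE 0.78) and 0.51 (SE 0.78).

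Sdhb, the iron-sulfur subunit, read 0.51, 2.15, 2.24, 0.83 and 2.15 in control, 2.23, 0.41, 2.98, 1.04 and 0.58 at day 10 and 2.30, 2.19, -3.93, 1.78 and 1.97 at day 30. All arrays but day 30 replicate 3 lay between 0.41 and 2.98, and that array read -3.93, with Sdhb not detected on it. The Sdhb differences were -0.13 (SE 1.00) at day 10 and -0.72 (SE 1.00) at day 30. Another probe of Sdhb gave 2.03 and 0.64. Complex II was the 1 complex with more members lower than higher at day 30 against day 10, with 1 higher, 3 lower and a median of -0.46. Without day 30 replicate 3 this median was 0.31, and with the mean of all probes of a gene it was -0.03.

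Complex III passes electrons from ubiquinol to cytochrome c. Its mean level was 1.11 ± 0.46 on control arrays (SD, n = 5), 1.00 ± 0.43 on day 10 arrays and 1.63 ± 0.48 on day 30 arrays. At day 10, 5 of 8 members were above control and 3 below, with a median of 0.20. At day 30, 6 were above and 2 below, with a median of 0.61, the largest median of the 5 complexes in that comparison. It was 0.84 with slide as a block, -0.03 in the authors' deposited table, where the median of all genes was -0.24, and -0.25 with detection share as a covariate. None of the 8 reached an unadjusted p under 0.05 against control, where 2.59% of all genes did at day 10 and 5.14% at day 30.

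Between the diet days, 6 of the 8 were higher at day 30 and 2 lower, with a median of 0.47. Over all genes, 1.82% were higher and 2.29% lower at an unadjusted p under 0.05. Of the 8, Uqcrc2, a core protein facing the matrix, was the 1 with such a p, and it was higher. Its probe lies at chr7:127802599-127802658, plus strand on build mm9, and it read 0.59, 2.28, 3.71, 2.85 and 2.79 in control, 1.53, 2.88, 1.31, 1.34 and 2.68 at day 10 and 4.01, 2.34, 3.97, 2.55 and 3.46 at day 30. The day 30 arrays 1, 3 and 5 lay above every day 10 array, and control replicate 1 was the lowest of all. Day 30 minus day 10 was 1.32 (SE 0.56) with a limma adjusted p of 0.999. It was 0.49 in the authors' deposited table and 0.70 with detection share as a covariate. Uqcrc1, the other core protein, differed by 0.33 (SE 0.69), and from control by 0.19 (SE 0.69) at day 10 and 0.52 (SE 0.69) at day 30.

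Uqcrfs1, the Rieske iron-sulfur protein, had the smallest p of the complex at day 10. It read -1.40, 1.29, 1.22, -1.32 and -0.81 in control, -1.02, -1.34, -5.47, 0.19 and -3.78 at day 10 and -3.96, -1.40, 0.46, 0.52 and 0.84 at day 30. Replicates 3 and 5 were the lowest at day 10, and the groups overlapped. Uqcrfs1 was detected on 5 control, 4 day 10 and 4 day 30 arrays. The values -5.47 at day 10 and -3.96 at day 30 lay below the lowest detected signal of their arrays. The difference was -2.08 (SE 1.13) (limma adjusted p = 1) at day 10 and -0.51 (SE 1.13) at day 30. Uqcrh, the hinge protein with the ETS motif printed above, had the smallest p at day 30. Its difference was 0.73 (SE 0.43) (limma adjusted p = 0.926), and its other probe gave 0.55. The probes of a gene agreed well for Uqcrb, a ubiquinone-binding protein, at 0.57, 0.71 and 0.66, and poorly for Uqcr10, where 2 probes gave 2.26 and 2.32 and another gave -1.34.

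Complex IV, cytochrome c oxidase, had the median nearest to control of the 5 complexes at day 30. Its mean level was 0.90 ± 0.30 on control arrays (SD, n = 5), 0.84 ± 0.38 on day 10 arrays and 1.01 ± 0.66 on day 30 arrays. At each day, 7 of 15 tested members lay above control and 8 below, with medians of -0.12 and -0.09. At day 30, 2 members, Cox6a1 and Cox7a2l, were higher at an unadjusted p under 0.05, and 0 were lower. Over all genes, 2.47% were higher and 2.67% lower at that p.

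Cox6a1, the ubiquitous isoform of a regulatory subunit, carries the NRF1 motif shown above, and its probe lies at chr5:115795726-115795785, minus strand on build mm9. It read 1.30, -1.83, 0.10, 1.22 and 0.03 in control, 0.99, -0.16, 2.03, -1.15 and -2.12 at day 10 and 2.99, 2.61, 3.85, 0.88 and 0.01 at day 30. Day 30 replicates 1, 2 and 3 lay above all arrays of the other groups, and replicates 4 and 5 within their range. Day 30 minus control was 1.91 (SE 0.89) and day 30 minus day 10 was 2.15 (SE 0.89), with limma adjusted p of 0.926 and 0.999. With slide as a block the 2 differences were 4.50 and 3.70. In the authors' deposited table they were 0.65 and 0.91. Its muscle isoform Cox6a2 was lower than control, by -0.85 (SE 0.91) at day 10 and -1.03 (SE 0.91) at day 30, with 2 detected arrays at day 30.

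Cox7a2l, a paralogue known to join complexes III and IV into supercomplexes, was bright on all arrays, and its probe lies at chr17:83901291-83901350, minus strand on build mm9. It read 2.10, 4.50, 4.61, 3.54 and 4.15 in control, 4.24, 4.18, 4.35, 4.59 and 3.83 at day 10 and 5.11, 4.22, 5.38, 4.13 and 4.79 at day 30. Control replicate 1 was the lowest by far, and 3 of 5 day 30 arrays were above all controls. The difference was 0.94 (SE 0.43) at day 30, with a limma adjusted p of 0.926, and 0.93 and 0.10 for its other probes. It was -0.02 with detection share as a covariate, 0.09 in the authors' deposited table, 0.52 without control replicate 1, 0.56 with quantile normalization and 0.56 with the percentile over detected probes. Cox7a2 differed by -0.12 (SE 0.84) and -0.10 (SE 0.84), and the muscle isoform Cox7a1 by 1.05 (SE 0.72) and 0.08 (SE 0.72).

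Of the other subunits, Cox4i1, the ubiquitous isoform of subunit 4, differed from control by 0.32 (SE 0.52) at day 10 and 0.87 (SE 0.52) at day 30. Cox4i2 had the smallest p of complex IV at day 10, at -1.52 (SE 0.79) (limma adjusted p = 1). It read -0.48, -0.70, -0.31, -2.00 and -3.06 in control, -1.34, -2.65, -2.73, -3.66 and -3.77 at day 10 and -2.49, 0.47, -2.19, -3.02 and -2.39 at day 30. Control replicates 1 to 3 lay above all day 10 arrays, and the other controls among them. Cox5a and Cox5b, nuclear-encoded subunits on the matrix side of the enzyme, lay on opposite sides of control at day 30, at -0.80 (SE 0.64) and 1.45 (SE 1.34). The values for Cox6b1 were -0.52 (SE 0.91) and -0.97 (SE 0.91), for Cox7b 0.67 (SE 0.54) and -0.09 (SE 0.54), and for Cox8a -0.52 (SE 0.90) and -0.52 (SE 0.90). Another probe of Cox8a gave 0.47 at day 30. Cox6b2, with 3, 4 and 1 detected arrays, gave 0.22 (SE 1.01) and -0.57 (SE 1.01).

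Complex V held the largest share of members above control. Its mean level was 1.11 ± 0.58 on control arrays (SD, n = 5), 1.67 ± 0.65 on day 10 arrays and 1.86 ± 0.81 on day 30 arrays. At day 10, 14 of 16 tested members were higher than control and 2 lower, with a median of 0.26. At day 30, 13 lay above and 3 below, with a median of 0.55. The day 10 median was 0.02 within slide 1, which held the controls and 3 of the day 10 arrays, and the day 30 median was -0.08 with slide as a block, -0.16 in the authors' deposited table and -0.05 with detection share as a covariate. For all genes the day 30 medians were 0.15, -0.24 and 0.09 in the same order of settings. Over these 16 members 0 at day 10 and 1 at day 30 had an unadjusted p under 0.05, against 2.59% and 5.14% of all genes.

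Atp5o, the peripheral stalk subunit that confers sensitivity to oligomycin, was that 1, and its probe lies at chr16:91925542-91925601, minus strand on build mm9. It read -0.25, -3.90, -3.30, 1.01 and -3.23 in control, 0.13, -0.52, -1.53, 0.22 and -0.27 at day 10 and 2.02, -3.25, 2.70, 2.04 and 0.37 at day 30. Control replicates 2, 3 and 5 and day 30 replicate 2 were the lowest 4 arrays, well apart from the other 11. The means were -1.93 ± 2.17 (SD, n = 5), -0.39 ± 0.70 and 0.78 ± 2.41. Day 30 minus control was 2.71 (SE 1.12), with a limma adjusted p of 0.926, and was 1.03 in the authors' deposited table. The largest within-group spread of the members detected on all arrays was that of Atp5o, with a pooled SD of 1.92.

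At the other end, Atp5g1, one of the genes for subunit c, had the smallest pooled SD of those members, 0.21. It read 5.22, 4.99, 5.51, 5.08 and 5.00 in control, 4.92, 5.11, 5.25, 5.34 and 5.55 at day 10 and 5.63, 5.34, 5.58, 5.27 and 5.27 at day 30. Its arrays overlapped between groups, and it differed from control by 0.07 (SE 0.20) at day 10 and 0.26 (SE 0.20) at day 30. For the paralogues Atp5g2 and Atp5g3 the day 30 differences were -0.01 (SE 0.77) and 2.23 (SE 1.06). The catalytic subunits Atp5a1 and Atp5b differed by 0.87 (SE 0.73) and 0.14 (SE 0.67) at day 10 and by 0.36 (SE 0.73) and 0.84 (SE 0.67) at day 30. Atp5c1, the rotor axle, differed by 0.20 (SE 0.55) and 0.78 (SE 0.55). Atp5sl, known as an assembly factor of complex I in spite of its array name, had the smallest p among the complex V names at day 10, at 2.58 (SE 1.41) (limma adjusted p = 1), with 1 control and 4 day 10 arrays detected. All 3 detected probes of Atp5k, a subunit that helps ATP synthase form dimers, gave positive day 30 differences of 1.52, 2.11 and 2.05.

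**Figure D4:**
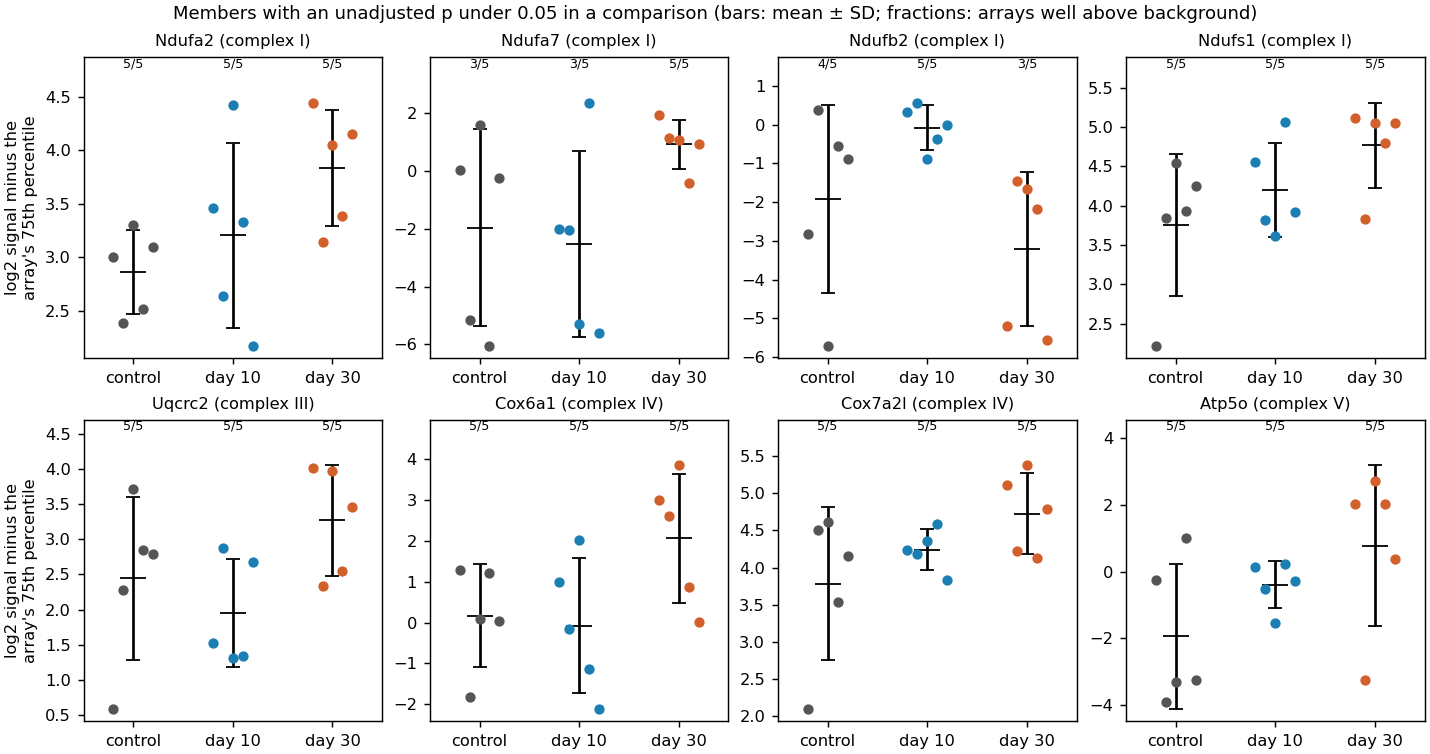
Level on each array of the 8 members with an unadjusted p under 0.05 in any comparison, with mean and SD of 5 arrays; fractions at the top give the arrays well above background. The day 10 and day 30 arrays of Ndufb2 do not overlap, while the groups overlap for the other genes.

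Probe choice mattered for many members. In 26 members more than 1 probe was detected on at least 5 arrays, and in 14 of them at day 10, 10 at day 30 and 9 between the diet days some probe had the opposite sign to another. In complex I, for example, the brightest probe of Ndufb5 differed from control by -0.37 at day 30 and another by 3.02. Against control, the groups overlapped for all 78 tested members at both days, while they did not overlap for 0.419% of all genes at day 10 and 0.612% at day 30.

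**Figure D5:**
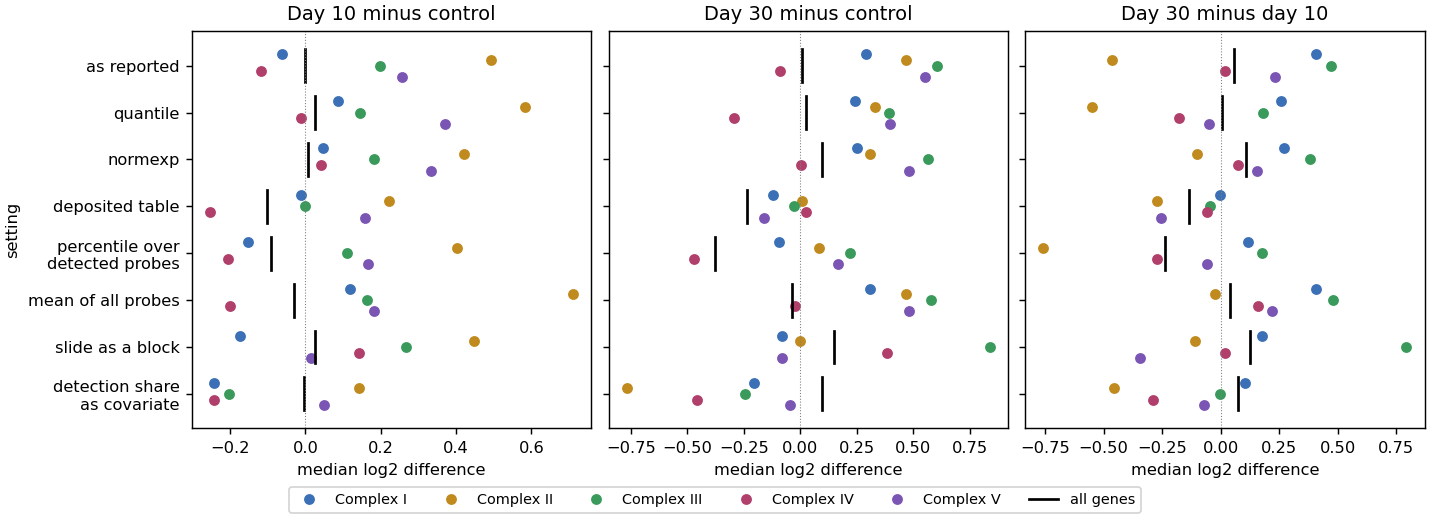
Median log2 difference of the members of each complex, as coloured points, under 8 ways of processing, with the median of all tested genes as a black line, for the 3 comparisons. At day 30 against control the points of complexes I, III and V lie right of 0 as reported and left of it with detection share as a covariate.

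The assembly and regulatory genes around the chain gave no call either. Of assembly factors, 13 of complex I were tested, with 5 above control and 8 below at both days, and 21 of complex IV, with 11 above and 10 below at day 10 and 10 above and 11 below at day 30. For complexes II, III and V, 3, 5 and 4 factors were tested. Ndufaf2, an assembly factor of complex I, was the related gene with the smallest p at day 10. It read -0.40, -2.93, 2.32, -3.71 and -0.24 in control, -6.00, -5.90, -5.47, -4.57 and -6.42 at day 10 and -5.59, -6.18, -4.96, -2.43 and -5.81 at day 30. Ndufaf2 was detected on 5 control, 0 day 10 and 1 day 30 arrays. It met the filter of 5 arrays only through the controls, so being high in control admitted it to the test. With no day 10 array detected, the difference is a bound, at least 8.66-fold lower at day 10, with a limma adjusted p of 0.768. Taco1, which activates translation of a mitochondrially encoded subunit of complex IV, was detected on 5 control, 0 day 10 and 2 day 30 arrays. It too met the filter of 5 arrays only through the controls. Taco1 was at least 8.47-fold lower at day 10 (limma adjusted p = 0.969). In complex V, Atpif1, the inhibitor of ATP synthase running in reverse, differed by -2.92 (SE 1.24) at day 10 and 0.17 (SE 1.24) at day 30. Tmem242, an assembly factor of ATP synthase, differed by 1.42 (SE 0.63) and 1.49 (SE 0.63).

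Among 15 tested regulators of mitochondrial biogenesis, 5 lay above control and 10 below at day 10, 8 above and 7 below at day 30, and 13 above and 2 below at day 30 against day 10. Ppargc1a, which encodes the coactivator PGC-1alpha, had the smallest p of this list between the diet days, at 3.33 (SE 1.10) (limma adjusted p = 0.999). It read -2.58, -2.38, -5.54, -4.76 and -4.74 in control, -2.08, -4.04, -3.88, -6.42 and -6.46 at day 10 and -0.92, 0.26, 0.25, -0.99 and -4.80 at day 30, and was detected on 2, 1 and 4 arrays. Day 30 replicates 1 to 4 lay above all other arrays and replicate 5 did not. Gabpa, which binds the ETS motif, had the smallest p at day 30 against control, at -2.17 (SE 0.78) (limma adjusted p = 0.926). Nrf1 differed by -2.33 (SE 1.80) and -1.51 (SE 1.80), and Tfam, the packaging and transcription factor of mitochondrial DNA, by 0.42 (SE 0.82) and 0.64 (SE 0.82).

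Of 21 genes of the tricarboxylic acid cycle and nucleotide carriers, 14 lay above control and 7 below at day 10, and 13 above and 8 below at day 30. Suclg2, a subunit of succinyl-CoA ligase, was detected on 5 control, 4 day 10 and 0 day 30 arrays. Without the controls it would not have met the filter of 5 arrays. Suclg2 was at least 7.70-fold lower at day 30 than in control (limma adjusted p = 0.769). Cycs, which encodes cytochrome c, differed by -0.39 (SE 0.67) and -0.13 (SE 0.67), and Cyc1, the cytochrome c1 of complex III that the naming rule left out, by 1.24 (SE 1.46) and 1.00 (SE 1.46). Subunits encoded by mitochondrial DNA were not analysed here.

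One list of markers of other cells leaned to higher values between the diet days, with no gene called. Of 8 tested macrophage and dendritic cell markers, 7 were higher at day 30 than at day 10 and 1 lower, with a median of 1.08. At an unadjusted p under 0.05, 3 of them (Lyz2, Apoe and Cd74) were higher, against 1.82% of all genes. The lower one was Csf1r, at -0.02 (SE 0.37). Against control, 2 of the 8 were higher and 6 lower at day 10, and 5 higher and 3 lower at day 30. H2-Aa, of the same list, was detected on 5 control, 1 day 10 and 2 day 30 arrays, so it met the filter of 5 arrays only through the controls. It differed from control by -5.17 (SE 1.33) at day 10 and -4.52 (SE 1.33) at day 30, with limma adjusted p of 1.00 and 0.926. Cd74, detected on all 15 arrays, went the other way, by 1.02 (SE 0.64) at day 10 and 2.55 (SE 0.64) at day 30. Its limma adjusted p at day 30 was 0.878. Of 7 tested markers of CD8 T and NK cells, 6 were lower at day 30 than at day 10 and 1 higher, with a median of -0.41 and 0 at an unadjusted p under 0.05. The summed level of that list ran from 5.48 to 7.87 in control, 6.60 to 7.42 at day 10 and 6.36 to 7.24 at day 30. All 10 CD4 T cell markers were higher than control at day 30, with a median of 0.27. For all genes detected on all 15 arrays that median was 0.21, with 65.6% higher. At an unadjusted p under 0.05, 2 of the 10 (Thy1 and Cd5) were higher, against 2.47% of all genes. The summed level of the macrophage and dendritic list ran from 3.44 to 5.30 on the control arrays, 3.38 to 4.65 at day 10 and 4.15 to 5.50 at day 30, on the log2 scale relative to the 75th percentile. Of its defining genes Lyz2 was detected on 3, 0 and 3 arrays, Itgax on 1, 0 and 0, and Csf1r on all. The part of such cells in the differences of Uqcrc2, Cox6a1, Ndufa7 and Ndufb2 between the diet days was not tested. In these bulk samples, fewer cells of a type and less RNA per cell cannot be told apart.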

How the data were processed

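Per the file headers, scanner images were read with Feature Extraction 10.7.3.1 (Agilent) against a grid of build mm9. The processed intensity it gives has background subtracted and no scaling across arrays, per the file headers. In the deposited value table, values are log2 and share 1 distribution on all arrays. How the authors reached that log2 scale is not given in the sources used here, and the table served as an alternative.

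Here, processed intensities were put on a log2 scale and centred on each array's 75th percentile of non-control probes, with outlier spots and 1 damaged line left out and 0 spots saturated. Each gene took the values of its brightest probe and was tested if well above background on at least 5 of 15 arrays, which kept 25998 genes and left out 8823. The 3 groups were compared in 1 fit of 15 arrays (limma 3.58.1, R 4.3.3; lmFit, then eBayes with trend, two-sided), with Benjamini-Hochberg adjustment over all tested genes and a threshold of 0.05. The fit was tested on simulated data. The number of arrays limits the precision, and the median standard error of a member's difference was 0.88.

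The members, lists and tests were chosen with earlier results of these data known. Named were the members with the smallest p per complex and comparison, catalytic or core subunits, isoform families, members whose groups did not overlap, and untested members, and from related lists those with the smallest p, Cycs, Cyc1, Tfam, Ppargc1a and Nrf1. Members and markers outside these rules are described as examples chosen after their values were seen. Alternatives were other scalings, quantile normalization, normexp with an offset of 50, the deposited table, other filters on dim genes, all probes of a gene, slide as a block or within a slide, a replicate block, detection share as a covariate, only the arrays of both groups, canonical subunits alone and leaving out arrays. Promoter windows and symbols came from RefSeq tables of GRCm38.p6. All 84 members matched a symbol there, 3 under a newer name. Probe positions are those of the file on mm9. No genome of mm9 was used, so exons and untranslated regions were not analysed here. Some member and marker results are not reported here.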

Additional observations from a re-analysis of the deposited data

Results flagged for a closer look

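In 7 of 123 groups of 5 arrays examined, which were those of 35 named members tested, the means of the 5 complexes and the detected share of spots, the highest or lowest array stood apart from the others by more than Dixon's 95% critical value of 0.71 of the group's range, and chance gives about 1 in 20. Control replicate 1 read 1.27 for Atp5c1, the rotor axle of ATP synthase, with the nearest control array at 3.37. The same array read -0.07 for Cox7a1, a muscle isoform of complex IV, with the nearest at -2.20. Day 10 replicate 1 read -3.91 for Atp5g3, a gene for subunit c, with the nearest at -0.56. Day 10 replicate 5 read -6.27 for Ndufa4, with the nearest at 0.39. That reading lay below the array's lowest detected signal of -4.285. Day 30 replicate 2 read 0.47 for Cox4i2, with the nearest at -2.19, and 3.83 for Ndufs1, with the nearest at 4.80. Day 30 replicate 3 read -3.93 for Sdhb, the iron-sulfur subunit of complex II, with the nearest at 1.78. This reading too lay below the array's lowest detected signal, which was -2.867. Control replicate 1 had the highest detected share of spots of the 15 arrays and day 30 replicate 3 the lowest, and the part of that share in these values was not tested.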

How the results depend on the processing

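At day 10, the count of members at an unadjusted p under 0.05, 0 as reported, was 1 with normexp, the deposited table, only genes detected on all 15 arrays, dim values set to each array's lowest detected signal, a replicate block, detection share as a covariate, only the arrays of both groups, or, chosen after seeing the data, without both control replicate 1 and day 30 replicate 3. It was 2 with slide as a block and 0 to 3 when 1 array was left out, 3 without day 10 replicate 1. Over all genes the count was 673 as reported, 589 with slide as a block and 768 without day 10 replicate 1.

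At day 30 against control, the count of 5 members was 1 with the percentile over detected probes, 2 with quantile normalization, 8 in the deposited table, and 2 to 10 when 1 array was left out. It was 10 without control replicate 3, 3 without control replicate 1 or 4, and 2 without control replicate 2, day 30 replicate 1 or day 30 replicate 3. Over all genes, 1337 of 25998 had such a p as reported. That count was 1481 with the percentile over detected probes, 1244 with quantile normalization, 2266 without control replicate 3 and 1119 without day 30 replicate 3. In the deposited table it was 1972 of 23796 genes. With slide as a block 1 gene on the array was called (limma), which was lower. That block compares day 30 with control only through the day 10 arrays present on both slides. Medians, not set against that of all genes, moved by more than the spread between arrays for complex II (-0.77 with detection share as a covariate), complex III (-0.026 in the deposited table, -0.25 with the covariate) and complex V (-0.16 in the deposited table, -0.081 with slide as a block, -0.045 with the covariate). In the deposited table the median of all genes was itself -0.24, and complexes III and V lay 0.21 and 0.08 above it. With the covariate Cox7a2l differed by -0.019. The cause was not tested.

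Between the diet days, the count of 4 members was 2 with quantile normalization or with only genes detected on all 15 arrays, and 1 to 5 when 1 array was left out, 1 without day 30 replicate 3 and 2 without day 10 replicate 5. Over all genes the count was 1068 as reported, 1013 with quantile normalization, 1018 without day 30 replicate 3 and 1026 without day 10 replicate 5. Genes called over the array were 0 to 2 when 1 array was left out, 2 without day 10 replicate 4. Of 35 named members tested, 20, 13 and 13 kept their sign under every alternative at day 10, day 30 and between the diet days.

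Replicate numbers did not pair the samples: deviations of same-numbered arrays correlated at -0.126 to 0.153 over 15 pairs, and those of different numbers at -0.208 to 0.212 over 60. The replicate block left every other count within 1.5 times its reported value.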

Other observations

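Members of the same complex varied together within groups to different degrees. Over the 15 arrays, after each group's mean was taken off, the mean correlation between pairs of members detected on all arrays was 0.44 for the 4 of complex III, 0.24 for the 12 of complex V, 0.22 for the 12 of complex IV, 0.05 for the 17 of complex I and -0.07 for the 3 of complex II. It was 0.16 over the 48 members and 0.05 over the 11601 genes detected on all arrays. The points of each correlation share arrays, and so also their amplification, scaling and detected share, and these values are a description with no test. The 48 members also spread more within groups than other bright genes, with a median pooled SD of 1.10 against 0.88. By complex this median was 1.46 in complex I, 1.31 in II, 0.86 in III, 1.06 in IV and 1.03 in V.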
